A study of Mus musculus with 4 samples.

Results

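The collagen genes outside the collagen IV alpha 1 and alpha 2 pair were followed in mouse embryonic stem cells after depletion of hnRNP K. The set was taken by name: all genes whose symbol is Col, a type number, the letter a and a chain number, without Col4a1 and Col4a2. The table held 41 such genes among 22138. RNA was sequenced from TT2 cells, a female line of embryonic stem cells from a C57BL/6xCBA cross, kept without feeder cells in serum with LIF. The groups were 2 libraries of cells given control siRNA and 2 of cells given siRNA against Hnrnpk, described as biological replicates. Both groups were transfected at 100 nM and, 24 hours later, at 50 nM with the same siRNA, and RNA was taken about 72 hours after the second transfection. Hnrnpk encodes an RNA- and DNA-binding protein, and the title of the series links it to gene silencing by SETDB1. The knockdown was transient and partial.

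Collagens are extracellular proteins whose chains wind into a triple helix, and a trimer may hold the same chain or different chains of its type. Fibrillar collagens such as types I, II, III, V and XI form the cross-banded fibres of skin, bone and cartilage. FACIT collagens, the fibril-associated group with interrupted helices, sit on those fibres. Network-forming collagens make sheets, transmembrane collagens stay anchored in the cell surface, and multiplexins, with types XV and XVIII, lie in or near basement membranes. Collagen IV alpha 1 and alpha 2 are the main basement membrane collagen of the early embryo and are used here only for comparison.

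The 4 libraries were measured as RPKM, reads per kilobase of transcript scaled to library depth. Hnrnpk (ENSMUSG00000021546) stood at 236 and 226 RPKM in the control siRNA libraries and at 68.0 and 70.5 RPKM after Hnrnpk siRNA, in the direction of the labels. Steps between the lowest values put the relative depth at 1 and 0.982 for the control replicates and at 0.891 and 0.882 for the Hnrnpk siRNA replicates. All 10 embryonic stem cell markers examined were present, with a summed level of 3970 to 4120 RPKM in control and 4750 to 5080 RPKM in Hnrnpk siRNA libraries. Of these 10, 3 were called higher and 3 lower by the rule given below, and the rise of the sum lies in Dppa5a, at a mean of 1298 RPKM in control and 2308 RPKM in Hnrnpk siRNA libraries. By that rule 67.2% of all tested genes were called, 32.2% higher and 35.0% lower. Of 11 fibroblast or mesenchyme markers, 6 had levels high enough to test. Pdgfra and Twist1 were called higher, and Thy1, Acta2 and Meox1 lower. The mean of Pdgfra reached 0.5 RPKM only through the Hnrnpk siRNA libraries, and that of Acta2 only through its control libraries. The summed level of the 11 was 9.55 to 11.3 RPKM in control and 7.22 to 7.35 RPKM in Hnrnpk siRNA libraries, with Fap at 0 in all 4. The fall of that sum lies in Thy1, at a mean of 6.05 RPKM in control and 2.25 RPKM in Hnrnpk siRNA libraries. Of 11 primitive and parietal endoderm markers, 7 were tested, 4 of them were called higher and none lower, and the sum went from 18.5 to 19.6 RPKM up to 44.4 to 45.9 RPKM. Of the 7 trophectoderm markers found, all 5 tested were called higher and the sum went from 30.5 to 36.0 RPKM up to 68.5 to 73.1 RPKM. Neural, cartilage and endothelial markers summed to 103 to 116, 6.81 to 7.49 and 5.48 to 6.45 RPKM in control libraries and to 84.5 to 94.8, 4.46 to 4.50 and 6.58 to 6.98 RPKM in Hnrnpk siRNA libraries. Tubb3 made up most of the neural sum, at a mean of 104.9 RPKM in control and 87.4 RPKM in Hnrnpk siRNA libraries. Of the genes tested, 3 neural and 2 cartilage markers were called lower, and of 2 endothelial markers 1 was called each way. Among cartilage markers, Acan and Matn3 had lower means after Hnrnpk siRNA, and Matn1, Sox9 and Hapln1 higher ones. Among endothelial markers, Vwf had a lower mean and Cdh5, Kdr, Tek and Tie1 higher ones. The part of such cells in the collagen values below was not tested, and in bulk RNA fewer cells with a transcript and less of it per cell cannot be told apart.

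Most collagen genes were barely transcribed in these cells. Only 8 of the 41 reached a mean of 0.5 RPKM over the 4 libraries and 5 reached 1 RPKM, against 56.4% and 51.5% of all genes in the table. The median of the mean level was 0.0941 RPKM over the 41 genes and 1.21 RPKM over all genes. Another 12 lay between 0.1 and 0.5 RPKM, 12 between 0.02 and 0.1 RPKM, and 9 below 0.02 RPKM. The data nevertheless held reads for every one of them: none was listed at 0 in all 4 libraries, whereas 3324 genes of the table were. Col10a1 was listed at 0 in 3 libraries and Col28a1 in 2. Col10a1 would count as silent without Hnrnpk siRNA replicate 2, the library in which it held 0.00292 RPKM, worth 1 unit of depth. A unit is the smallest step of the values, 1 read or read pair, and units were estimated roughly from the exonic length of each gene. Col28a1 held 2 units in each of the 2 libraries where it was above 0, Col19a1 at most 3 units and Col4a3 at most 5.4 units in any library. These 4 genes are therefore listed here only as near 0, and no direction is read from any of them by itself. Col19a1 and Col4a3 do enter the counts below, over the 41 genes and the 33 lower ones, of genes whose groups did not overlap.

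**Figure D1:**
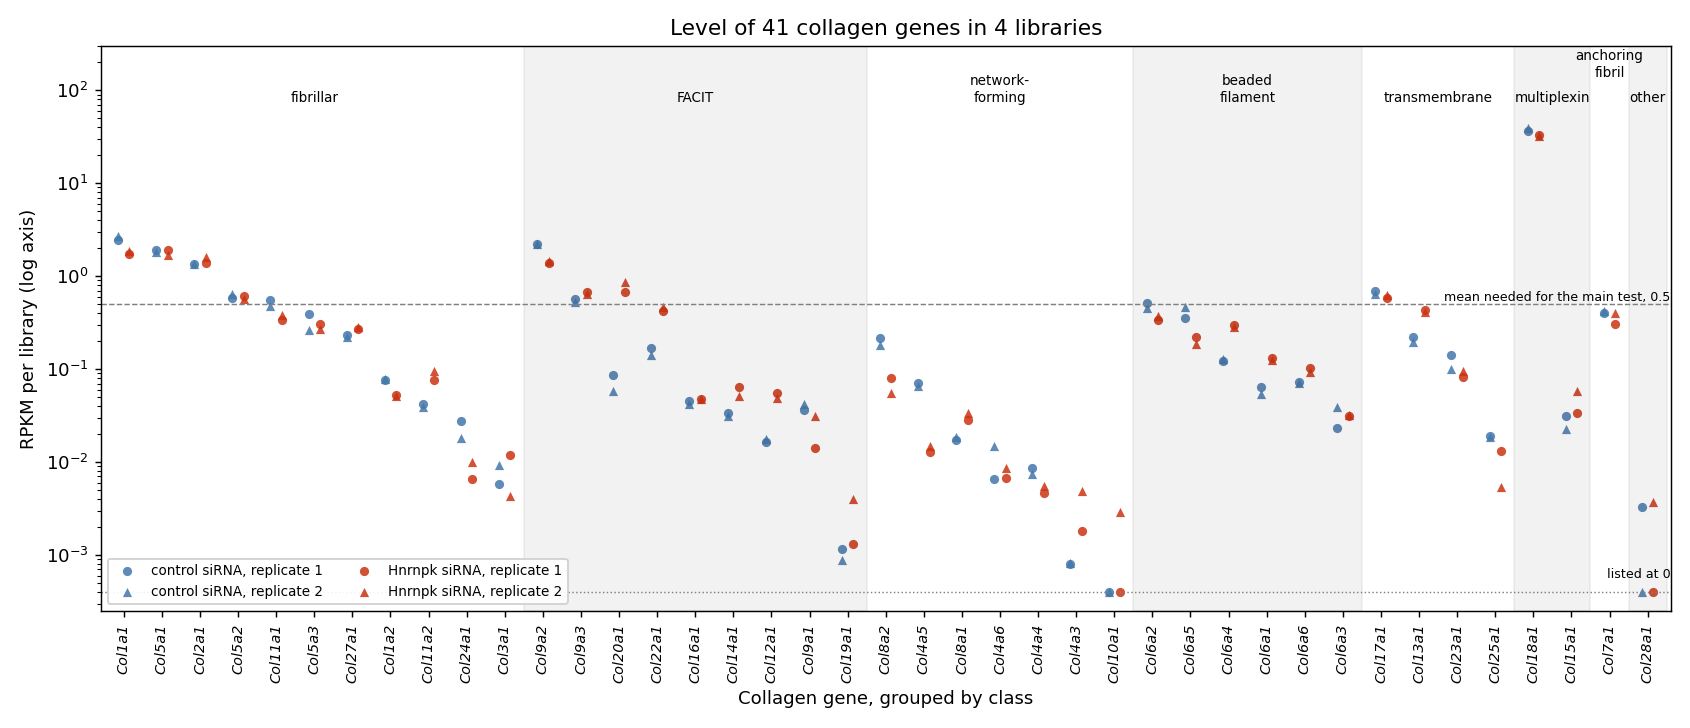
Level of each of the 41 collagen genes in RPKM (log axis) in every library, grouped by collagen class; the dashed line marks 0.5 RPKM and the dotted line holds values listed at 0. Col18a1 stands above 30 RPKM in all 4 libraries, 8 genes have a mean above the dashed line, and Col20a1 and Col4a5 show the widest gaps between the groups among genes with all libraries above 0.01 RPKM.

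1 gene carried most of the signal. Col18a1 (ENSMUSG00000001435) encodes the chain of type XVIII, a heparan sulfate proteoglycan of basement membranes whose C-terminal fragment is endostatin. It had 36.7 and 39.7 RPKM after control siRNA and 33.0 and 32.4 RPKM after Hnrnpk siRNA. It thus made up 70.95% to 74.5% of the summed RPKM of the 41 genes in each library. The next highest control levels were those of Col1a1, Col9a2, Col5a1 and Col2a1, at means of 2.57, 2.22, 1.86 and 1.34 RPKM.

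Windows of 250 bases before the start of 33 of the 41 genes were read from RefSeq (GRCm38.p6), in 36 windows because a few genes have more than 1 start. Of these 36 windows, 58.3% held the GC box GGGCGG, against 32.7% of all 32851 windows of that length, and 61.1% held the C-rich motif CCCTCC, against 35.2%. The motif TATAAA was in 13.9% of the collagen windows and 12.4% of all. Each motif was searched on both strands, GGGCGG and CCCTCC matches may overlap, and a match is a description of letters, not of binding. The median GC content was 58.4% in the collagen windows and 52.4% in all. The windows shown are those of the gene with the largest rise, of 3 genes that fell, and of Col4a6, the divergent neighbour of Col4a5. They are written 5′ to 3′ on the strand of the gene and end at the base before its start, with matches to the 3 motifs in capitals.
Col20a1, chr2:180986285-180986534, plus strand: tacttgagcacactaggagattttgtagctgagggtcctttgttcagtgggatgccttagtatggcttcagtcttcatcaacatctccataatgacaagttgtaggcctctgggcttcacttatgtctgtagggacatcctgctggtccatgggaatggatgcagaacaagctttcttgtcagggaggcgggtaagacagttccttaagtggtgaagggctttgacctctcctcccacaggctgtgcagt
Col9a2, chr4:121039316-121039565, plus strand: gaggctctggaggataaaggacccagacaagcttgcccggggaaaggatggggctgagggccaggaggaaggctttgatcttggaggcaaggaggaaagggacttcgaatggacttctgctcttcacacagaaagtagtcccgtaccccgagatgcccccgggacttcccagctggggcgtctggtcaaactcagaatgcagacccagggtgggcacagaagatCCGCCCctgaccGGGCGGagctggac
Col8a2, chr4:126286544-126286793, plus strand: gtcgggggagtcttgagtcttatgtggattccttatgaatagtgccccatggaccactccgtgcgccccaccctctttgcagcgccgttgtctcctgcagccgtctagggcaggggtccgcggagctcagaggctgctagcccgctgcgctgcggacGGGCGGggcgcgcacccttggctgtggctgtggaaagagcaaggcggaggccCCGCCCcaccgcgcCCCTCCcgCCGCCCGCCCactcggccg
Col4a5, chrX:141475169-141475418, plus strand: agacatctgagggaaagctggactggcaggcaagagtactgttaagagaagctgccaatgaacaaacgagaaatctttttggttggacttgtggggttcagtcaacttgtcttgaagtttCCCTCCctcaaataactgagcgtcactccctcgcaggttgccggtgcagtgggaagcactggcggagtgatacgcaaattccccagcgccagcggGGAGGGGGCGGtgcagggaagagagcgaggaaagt
Col4a6, chrX:141474077-141474326, minus strand: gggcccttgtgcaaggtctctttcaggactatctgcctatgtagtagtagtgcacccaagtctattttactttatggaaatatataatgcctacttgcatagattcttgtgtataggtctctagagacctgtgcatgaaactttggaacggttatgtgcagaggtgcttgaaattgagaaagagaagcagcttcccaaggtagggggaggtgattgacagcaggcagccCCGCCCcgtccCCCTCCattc
The Col20a1 window held none of the 3 motifs and had an observed to expected CpG ratio of 0.0671. The Col8a2 window held 4 GC boxes and had a ratio of 0.785, and that of Col9a2 held 2 and had a ratio of 0.404. The starts of Col4a5 and Col4a6 lie 1343 bases apart on opposite strands, so the 2 windows are parts of 1 intergenic stretch and each held 1 GC box.

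Of the 8 genes whose mean reached 0.5 RPKM, 3 fell after Hnrnpk siRNA and none rose. Col9a2, a FACIT chain of cartilage, fell most, followed by Col1a1, the major chain of the type I fibres of bone and skin, and by Col18a1. The groups were compared with limma on log2(RPKM + 0.5), a scale that understates the change of low genes, at an adjusted p under 0.05. By that rule 67.2% of all 12486 genes tested were called, 32.2% higher and 35.0% lower, so a count of 3 in 8 lies below the share of the whole table. At an unadjusted p under 0.05 the counts were the same, 3 lower and 0 higher. The median log2 change was -0.063 over the 8 genes and -0.015 over all genes tested. Over all genes above 0, the libraries of the groups did not overlap in 76.5%, and among the 41 collagen genes this held for 32, with Hnrnpk siRNA above control in 17 (39.0% of all genes) and below in 15 (37.5%). Among the 8 genes the groups did not overlap in 6 (84.7% of all genes at that level), 2 above and 4 below (41.2% and 43.5%). Among the 33 lower genes they did not overlap in 26 (60.4% of all genes above 0 at that level), 15 above and 11 below (34.5% and 25.8%). The 17 and the 15 genes above both include Col4a3 and Col19a1, which are near 0.

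Col9a2 (ENSMUSG00000028626) had 2.21 and 2.22 RPKM after control siRNA and 1.39 and 1.46 RPKM after Hnrnpk siRNA. All 4 values were close within their group, and the groups were well apart. In limma the difference was -0.50 on the log2 scale (SE 0.0874, adjusted p = 0.000721), and the mean level was 1.56 times higher after control siRNA.

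Col1a1 (ENSMUSG00000001506) stood at 2.46 and 2.68 RPKM after control siRNA and at 1.73 and 1.86 RPKM after Hnrnpk siRNA. Both Hnrnpk siRNA libraries lay below both control libraries, and limma gave -0.42 on the log2 scale (SE 0.0900, adjusted p = 0.00236). Its partner Col1a2 was far lower, at 0.0770 and 0.0791 RPKM and then 0.0523 and 0.0513 RPKM, and is taken up with the low genes.

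Col18a1, with the values above, changed by -0.22 on the log2 scale (SE 0.0657, limma adjusted p = 0.0143). The control libraries differed from each other by more than the 2 Hnrnpk siRNA libraries did, and leaving out the second control library (adjusted p = 0.0776) or the second Hnrnpk siRNA library (adjusted p = 0.0695) ended the call.

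The other 5 tested genes were not called. Col2a1, the chain of the cartilage fibre, had 1.34 RPKM in both control libraries and 1.39 and 1.61 RPKM after Hnrnpk siRNA (log2 change 0.12, SE 0.0961, limma adjusted p = 0.29). Col5a1 and Col5a2, the chains of type V that take part in starting type I fibres, overlapped between groups. Col5a1 had 1.92 and 1.80 RPKM against 1.91 and 1.70 RPKM, and Col5a2 0.578 and 0.650 RPKM against 0.606 and 0.566 RPKM. Their log2 changes were -0.035 (SE 0.0927) and -0.036 (SE 0.0977), and the sign of the first turned under quantile normalization and the signs of both with 1 library left out. Col9a3, a partner of Col9a2 in type IX, had 0.569 and 0.524 RPKM and then 0.681 and 0.646 RPKM (log2 change 0.15, SE 0.0961, limma adjusted p = 0.183). Its opposite strand carries Tcfl5 over 6.1% of its exonic bases, and whether reads were assigned by strand is not given. Col17a1, a transmembrane collagen of the hemidesmosomes that fasten epithelium to its basement membrane, had 0.698 and 0.650 RPKM and then 0.582 and 0.623 RPKM (log2 change -0.09, SE 0.096, limma adjusted p = 0.426).

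Since 33 of the 41 genes fell below that floor, the comparison was repeated with lower floors chosen after the data had been seen. A mean of at least 0.1 RPKM, with 0.1 RPKM added before the logarithm, took in 20 collagen genes, and 0.02 RPKM in the same 2 roles took in 32. At 0.1 RPKM, 4 genes were called higher and 6 lower, where 31.7% and 34.3% of 14513 genes were called, 66.0% in all. At 0.02 RPKM, 7 were called higher and 7 lower, where 30.8% and 31.8% of 16330 genes were called, 62.6% in all. A low gene passes a floor on its mean more easily when 1 group is high, so these counts describe single genes and do not speak for the 41. The 3 genes called at 0.5 RPKM were called at both lower floors, although at 0.02 RPKM the call of Col1a1 was lost without Hnrnpk siRNA replicate 1 (limma adjusted p = 0.0683) and that of Col18a1 without any library but control replicate 1 (highest adjusted p 0.0961). Just below the first floor lay Col11a1, Col6a2 and Col20a1 at means of 0.440, 0.421 and 0.418 RPKM, and just above it Col5a2 and Col9a3 at 0.600 and 0.605 RPKM.

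**Figure D2:**
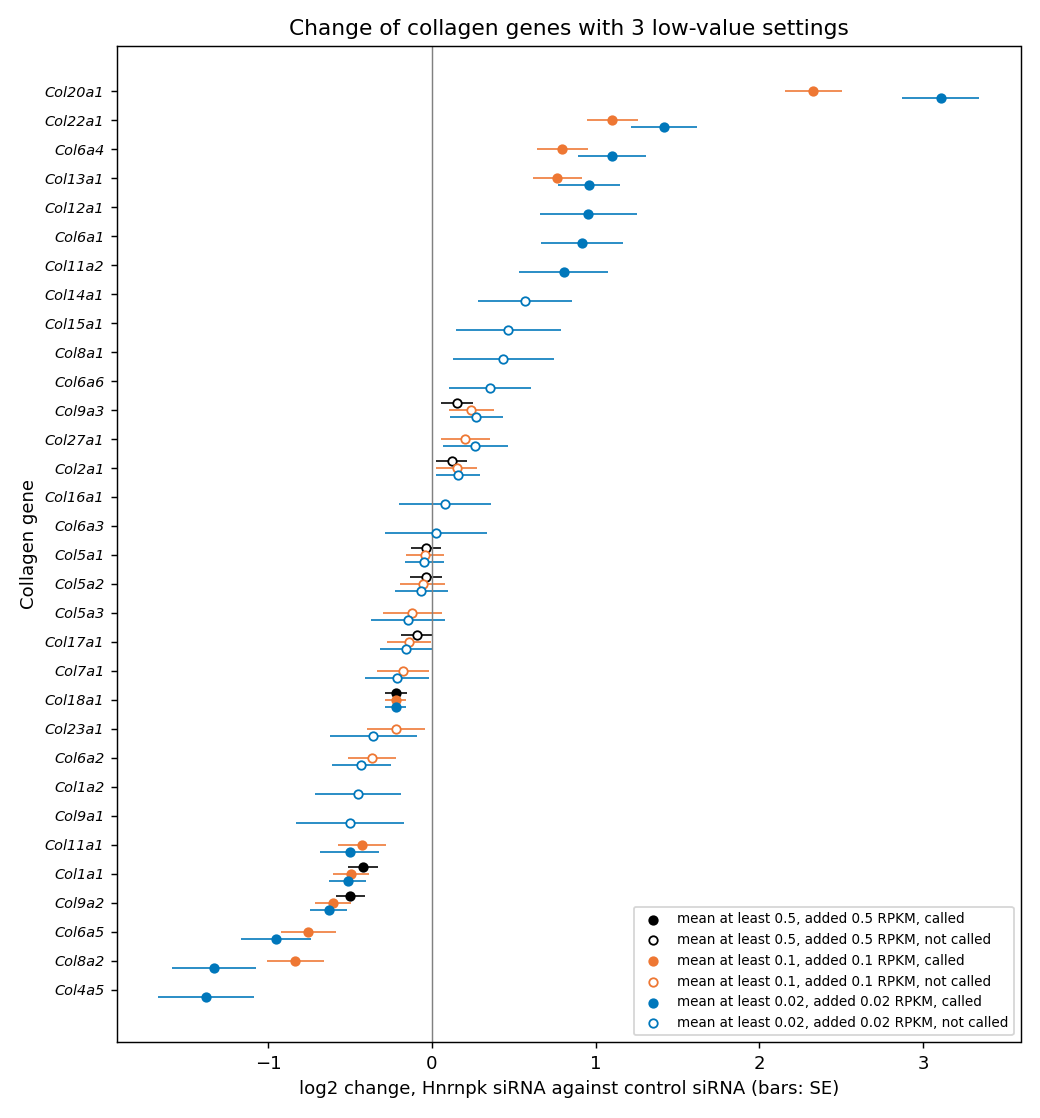
log2 change after Hnrnpk siRNA (x axis, bars are the SE) of the 32 collagen genes averaging 0.02 RPKM or more (y axis), at 3 floors with the same value added; filled points are called by limma at an adjusted p under 0.05. Col20a1 stands apart on the right at 2.33 and 3.11, and Col4a5, Col8a2 and Col6a5 lie farthest to the left.

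The largest rise belonged to Col20a1 (ENSMUSG00000016356), a FACIT collagen. It had 0.0854 and 0.0576 RPKM after control siRNA, about 54.5 and 36.1 units, and 0.673 and 0.856 RPKM after Hnrnpk siRNA, about 383 and 482 units. The mean was 10.7 times higher after Hnrnpk siRNA, and the lowest treated library lay far above the highest control library. With 0.1 RPKM added, limma gave 2.33 on the log2 scale (SE 0.173, adjusted p = 2.9e-06), and 2.18 to 2.48 when single libraries were left out. Its mean passed the 0.1 RPKM floor only through the Hnrnpk siRNA libraries, while both control libraries lay below it.

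Further FACIT genes also rose at the lower floors. Col22a1 (ENSMUSG00000079022), known from tissue junctions such as those of muscle and tendon, went from 0.169 and 0.142 RPKM to 0.427 and 0.468 RPKM. That is 2.88 times the control mean, and at the 0.1 RPKM floor limma gave 1.10 on the log2 scale (SE 0.155, adjusted p = 0.000173). Col12a1 (ENSMUSG00000032332), which lies on type I fibres, went from 0.0164 and 0.0177 RPKM to 0.0551 and 0.0489 RPKM, 3.04 times the control mean. Its mean passed 0.02 RPKM only through the Hnrnpk siRNA libraries, while both control libraries lay below it. It was tested only at the 0.02 RPKM floor (log2 change 0.96, SE 0.296, limma adjusted p = 0.0191), where the call was lost with any library but Hnrnpk siRNA replicate 2 left out (highest adjusted p 0.0668) and under quantile normalization (adjusted p = 0.0695). Col14a1 had 0.0339 and 0.0310 RPKM and then 0.0641 and 0.0519 RPKM and was not called (log2 change 0.57, limma adjusted p = 0.11). Col16a1 stayed between 0.0422 and 0.0476 RPKM in all libraries, and Col9a1 between 0.0141 and 0.0423 RPKM with the treated libraries lower, neither of them called. Without the near-silent Col19a1, the groups did not overlap in any of the other 8 FACIT genes, against 76.5% of all genes above 0. Hnrnpk siRNA lay above control in 6 (39.0% of all genes) and below in 2, Col9a1 and Col9a2 (37.5%). All but Col9a2 and Col9a3 had means under 0.5 RPKM. At that level the groups did not overlap in 60.4% of all genes above 0, 34.5% above and 25.8% below. The gap of Col16a1 was narrow, from 0.0454 RPKM in the higher control library to 0.0473 RPKM in the lower treated one.

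Among the fibrillar genes below 0.5 RPKM, directions were mixed. Col11a1 (ENSMUSG00000027966), a chain of the thin type XI fibres of cartilage, had 0.557 and 0.482 RPKM and then 0.341 and 0.380 RPKM (log2 change -0.43 at the 0.1 RPKM floor, SE 0.149, limma adjusted p = 0.0282). Its call held without control replicate 2 and was lost without each of the other libraries (highest adjusted p 0.189). Its partner Col11a2 went the other way, from 0.0424 and 0.0393 RPKM to 0.0771 and 0.0965 RPKM (log2 change 0.81 at 0.02 RPKM, SE 0.272, limma adjusted p = 0.0278), a call lost without any 1 of the 4 libraries and under quantile normalization (adjusted p = 0.0816). Col1a2, the second chain of type I, was not called at 0.02 RPKM (-0.45 on the log2 scale, SE 0.262, limma adjusted p = 0.163). It was called at that floor under quantile normalization (adjusted p = 0.0438). With no filter on low values it was also called, at a log2 change of -0.07 (limma adjusted p = 0.00965). Col5a3 and Col27a1 had control means of 0.326 and 0.226 RPKM, treated means of 0.289 and 0.276 RPKM, and were not called at either lower floor. Col3a1, the second main fibre of skin and vessels, held only 4.7 to 12.8 units in any library, with the groups overlapping. Col24a1 held 26.5 and 16.9 units and then 5.5 and 8.3 units and was below every floor.

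Of the 7 network-forming genes, 4 had means below 0.02 RPKM and were tested at no floor. Of the others, Col8a2 and Col4a5 were called lower at 0.02 RPKM and Col8a1 was not called. At that floor 62.6% of all genes tested were called, 31.8% lower. Col8a2 (ENSMUSG00000056174), a chain of the hexagonal lattice of the corneal Descemet membrane, had 0.215 and 0.180 RPKM after control siRNA and 0.0795 and 0.0549 RPKM after Hnrnpk siRNA. The control mean was 2.94 times the treated mean, and the log2 change at the 0.1 RPKM floor was -0.83 (SE 0.174, limma adjusted p = 0.00201). It ranged from -0.94 to -0.73 when single libraries were left out. Col8a2 passed that floor only through its control libraries, since both treated libraries lay below 0.1 RPKM. At 0.02 RPKM, with all 4 libraries above the floor, the change was -1.33 (SE 0.257, limma adjusted p = 0.00176). Col8a1, the partner of Col8a2, had 0.0173 and 0.0185 RPKM and then 0.0287 and 0.0340 RPKM. It was not called at the 0.02 RPKM floor (limma adjusted p = 0.241).

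Of the 4 minor chains of collagen IV only Col4a5 was high enough to test, and it fell. For comparison, Col4a1 had 6.75 and 6.62 RPKM and then 22.5 and 23.8 RPKM, and Col4a2 had 2.30 and 2.08 RPKM and then 7.57 and 8.01 RPKM. Col4a5 (ENSMUSG00000031274), whose chain joins alpha 3 and alpha 4 in the basement membrane of the kidney filter, had 0.0700 and 0.0661 RPKM and then 0.0128 and 0.0149 RPKM. In units this was 58.4 and 54.1 against 9.5 and 11, a control mean 4.92 times the treated mean. The log2 change at the 0.02 RPKM floor was -1.38 (SE 0.291, limma adjusted p = 0.00283), -1.43 to -1.33 when single libraries were left out. Col4a5 passed that floor only through its control libraries, since both treated libraries lay below 0.02 RPKM. Col4a6, which starts 1343 bases away, held 6.4 and 14.4 units and then 6 and 7.5 units, and its groups overlapped. Col4a4 held 11.5 and 9.6 units and then 5.4 and 6.4 units, and Col4a3 held 1 unit in each control library and 2 and 5.4 units after Hnrnpk siRNA, too few to read. The difference in response between these chains and Col4a1 was not tested.

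Type VI forms beaded filaments around cells from a core of alpha 1, alpha 2 and alpha 3. Col6a4 (ENSMUSG00000032572) had 0.122 and 0.128 RPKM and then 0.301 and 0.282 RPKM, which limma put at 0.80 on the log2 scale at the 0.1 RPKM floor (SE 0.156, adjusted p = 0.00139). Col6a1 went from 0.0644 and 0.0537 RPKM to 0.132 and 0.126 RPKM (log2 change 0.92 at 0.02 RPKM, SE 0.251, limma adjusted p = 0.0108), a call lost without either Hnrnpk siRNA library (highest adjusted p 0.0633). Col6a2 had 0.516 and 0.456 RPKM and then 0.338 and 0.373 RPKM, just short of a call (limma adjusted p = 0.0511 at 0.1 RPKM) but called under quantile normalization (adjusted p = 0.0375). Col6a5 (ENSMUSG00000091345) fell from 0.358 and 0.466 RPKM to 0.219 and 0.185 RPKM (log2 change -0.75 at 0.1 RPKM, SE 0.168, limma adjusted p = 0.00293). At the 0.02 RPKM floor that call was lost without Hnrnpk siRNA replicate 2 (adjusted p = 0.0619). Col6a5 and Col6a6 share a stretch of 572 bases at 95% identity or more, so reads may have been split between them and both values are uncertain. Col6a6 had 0.0728 and 0.0712 RPKM and then 0.102 and 0.0936 RPKM and was not called at the 0.02 RPKM floor. Col6a3 lay between 0.0235 and 0.0394 RPKM with the groups overlapping.

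Of the 4 transmembrane collagens, only Col13a1 was called at any of the 3 floors. Col13a1 (ENSMUSG00000058806), which is placed at cell adhesions and at the neuromuscular junction, rose from 0.220 and 0.198 RPKM to 0.435 and 0.415 RPKM (log2 change 0.77 at the 0.1 RPKM floor, SE 0.150, limma adjusted p = 0.00137). Col23a1 had 0.143 and 0.0993 RPKM and then 0.0817 and 0.0961 RPKM and was not called. Col25a1, found in neurons, held 30.7 and 29.5 units and then 18.8 and 7.7 units, below the 0.02 RPKM floor. Of the remaining genes, Col7a1, the anchoring fibril under the epidermis, had 0.398 and 0.423 RPKM and then 0.309 and 0.398 RPKM with no call, and Col15a1, the second multiplexin, had 0.0310 and 0.0229 RPKM and then 0.0339 and 0.0575 RPKM with no call.

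Summed by class, the 41 genes gave 50.5 and 53.3 RPKM after control siRNA and 45.8 and 45.7 RPKM after Hnrnpk siRNA, a ratio of treated to control mean of 0.882. Col18a1 set most of that sum. Without it the sums were 13.8 and 13.6 RPKM and then 12.8 and 13.3 RPKM, a ratio of 0.951, which came to a log2 value of -0.014 in place of -0.072 under quantile normalization. The network-forming genes had the lowest ratio, 0.428, from 0.318 and 0.288 RPKM to 0.134 and 0.126 RPKM, set by Col8a2 and Col4a5. FACIT genes had a ratio of 1.115, from 3.17 and 3.08 RPKM to 3.36 and 3.61 RPKM, in which the fall of Col9a2 and the rises of Col20a1 and Col22a1 offset each other. The fibrillar sum went from 7.63 and 7.58 RPKM to 6.70 and 6.83 RPKM, a log2 value of -0.169 that became -0.067 under quantile normalization. The beaded filament sum went from 1.16 and 1.215 RPKM to 1.12 and 1.09 RPKM, a log2 value of -0.099 that became -0.175. Over the same libraries Col4a1 and Col4a2 together went from 9.05 and 8.71 RPKM to 30.1 and 31.8 RPKM, a ratio of 3.48. With 2 libraries a group an exact permutation test of such a sum cannot reach the 0.05 threshold, so none was made.

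**Figure D3:**
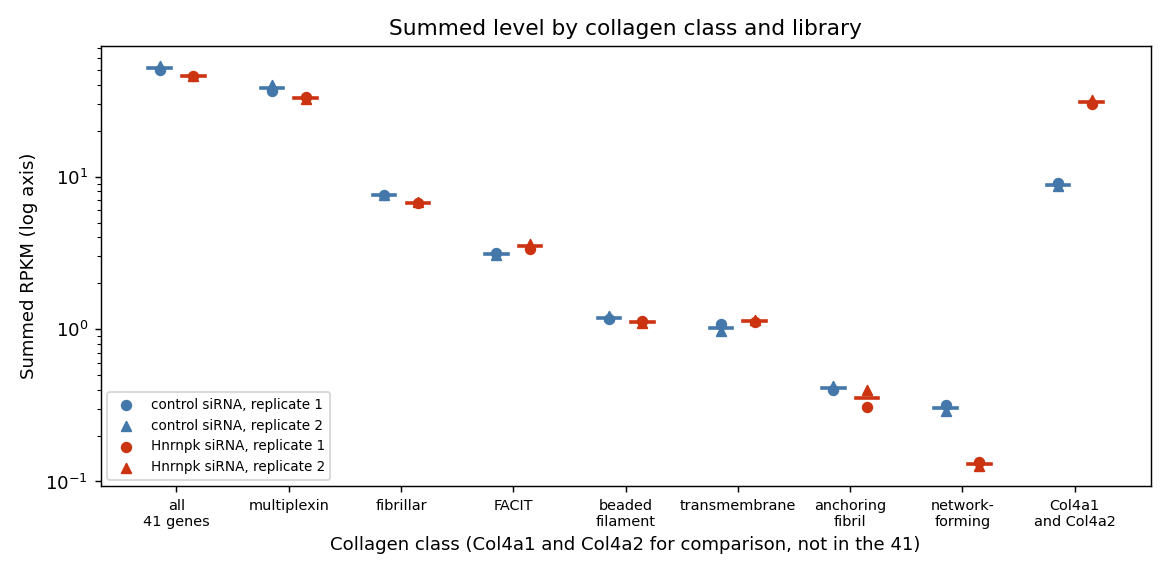
Summed RPKM (log axis) of each collagen class in every library, with the group mean as a bar; the class of a single near-silent gene, Col28a1, is left out. The network-forming sum is lower in both Hnrnpk siRNA libraries, and the sum of Col4a1 and Col4a2, shown for comparison, is higher in both.

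Chains that build the same trimer were present at very unequal levels. RPKM is scaled to length, so chains can be compared within a library. The lengths used for the scaling are not given, so the sizes of the ratios between chains are approximate. Col1a1 exceeded Col1a2 by 32.0 and 33.8 times in control libraries and by 33.1 and 36.2 times after Hnrnpk siRNA, although the common form of type I holds both chains. Col5a1 exceeded Col5a2 by 2.77 to 3.31 times in all 4 libraries. For both pairs the ratios of the groups overlapped.

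Of 13 ratios between chains computed, 6 were lower in both Hnrnpk siRNA libraries. Col9a2 over Col9a3 went from 3.88 and 4.25 to 2.05 and 2.25, Col11a1 over Col11a2 from 13.1 and 12.3 to 4.42 and 3.93, and Col6a2 over Col6a1 from 8.01 and 8.50 to 2.56 and 2.95. Col8a2 over Col8a1 went from 12.5 and 9.77 to 2.77 and 1.62, and Col4a5 over Col4a6 from 10.7 and 4.47 to 1.88 and 1.75, where Col4a6 rests on 6 to 14.4 units. The sixth, Col4a4 over Col4a3, rests on 1 to 5.4 units of Col4a3 and is not read further. 2 of the 13 were higher in both Hnrnpk siRNA libraries. Col2a1 over Col11a1, chains that meet in cartilage fibres, went from 2.41 and 2.77 to 4.07 and 4.25, and Col9a3 over Col9a1 from 15.8 and 12.4 to 48.4 and 20.8. In the 5 pairs with lower ratios named with values the treated mean of the more abundant chain lay below its control mean, and it still exceeded its partner in all 4 libraries. The change of these ratios was not tested. No share over other pairs of genes was computed, and several of the 13 ratios hold the same chain. For single genes, the groups did not overlap in 76.5% of all genes above 0. Col9a1, the third chain of type IX, stayed 46.8 to 99.0 times below Col9a2 in all libraries.

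**Figure D4:**
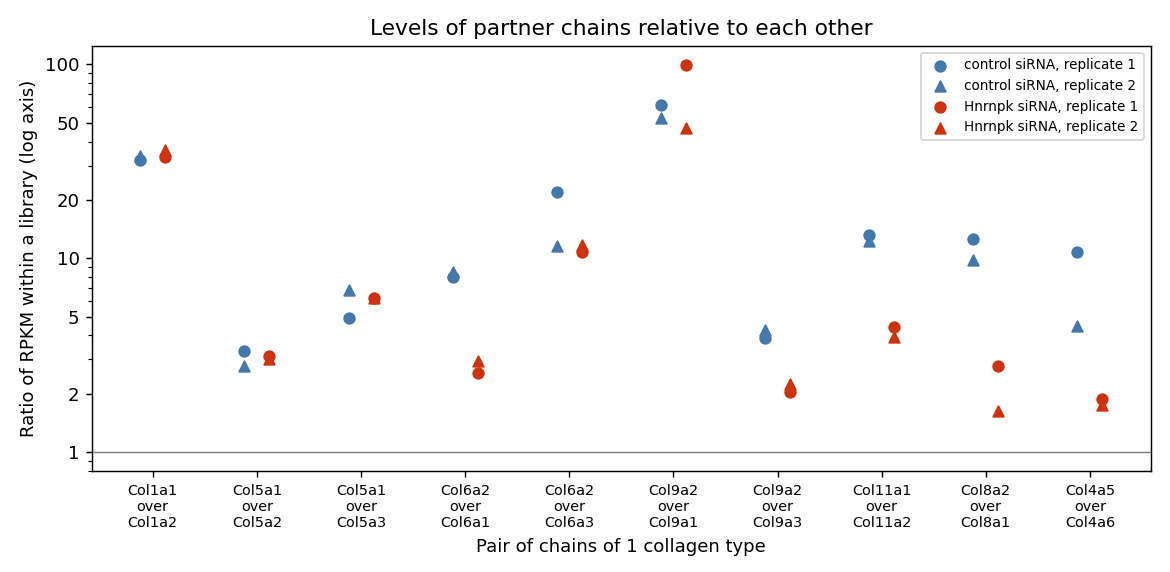
Ratio of the RPKM of partner chains within each library (log axis) for 10 pairs of chains of 1 collagen type. Col1a1 over Col1a2 lies at 32.0 to 36.2 in all libraries, whereas Col9a2 over Col9a3, Col11a1 over Col11a2, Col6a2 over Col6a1, Col8a2 over Col8a1 and Col4a5 over Col4a6 are lower in both Hnrnpk siRNA libraries.

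Genes that process collagen were, unlike the collagens, mostly well transcribed. Of the 32 assembly genes found, 25 had a mean of at least 0.5 RPKM, and 11 of these rose, 6 fell and 8 were not called, with a median log2 change of 0.19. The called share, 17 of 25, can be read against the 67.2% of all genes, 32.2% higher and 35.0% lower. The largest rises were in modifying enzymes. Glt25d2, a galactosyltransferase that acts on hydroxylysine, had 0.113 and 0.0930 RPKM and then 1.22 and 1.30 RPKM (log2 change 1.54), and reached the floor of 0.5 RPKM only through the treated libraries. The same held for Loxl3, also among the 11, with 0.399 and 0.408 RPKM and then 0.755 and 0.799 RPKM. Plod2, which hydroxylates lysines of the telopeptides for cross-linking, had 9.70 and 7.94 RPKM and then 18.99 and 18.5 RPKM (log2 change 1.05). Its paralog Plod1, which hydroxylates lysines of the helix, fell from 11.5 and 9.83 RPKM to 5.62 and 5.68 RPKM (log2 change -0.86). Adamts14, which trims the amino-terminal propeptide, fell from 3.02 and 2.65 RPKM to 1.15 and 1.12 RPKM (log2 change -1.03), and Leprel2, a prolyl 3-hydroxylase, from 1.95 and 1.93 RPKM to 0.771 and 0.903 RPKM (log2 change -0.87). The limma adjusted p of Plod1, the highest of those of Glt25d2, Plod2, Adamts14 and Plod1, was 2.2e-05, and that of Leprel2 was 3.45e-05.

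The general chaperones and hydroxylases of the endoplasmic reticulum included both called and uncalled genes. P4hb, the shared subunit of prolyl 4-hydroxylase, had 281 and 290 RPKM and then 385 and 423 RPKM (log2 change 0.50, limma adjusted p = 0.000236). Serpinh1, the collagen chaperone HSP47, had 43.2 and 47.5 RPKM and then 59.9 and 66.9 RPKM (log2 change 0.48, limma adjusted p = 0.000384). Ppib and Fkbp10, both prolyl isomerases, had log2 changes of 0.052 and -0.058 and were not called.

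Of 10 collagen receptors 4 were tested, with 1 called higher and 2 lower. Among all tested genes 67.2% were called, 32.2% higher and 35.0% lower. Itga1, a collagen-binding integrin chain, rose from 0.323 and 0.449 RPKM to 1.22 and 1.02 RPKM (log2 change 0.87, limma adjusted p = 0.000101). Its mean reached 0.5 RPKM only through the Hnrnpk siRNA libraries. Ddr1, a receptor kinase activated by collagen, fell from 15.4 and 14.5 RPKM to 11.3 and 11.8 RPKM (log2 change -0.36, limma adjusted p = 0.0014), and Mrc2, which takes up collagen fragments, from 0.938 and 0.979 RPKM to 0.265 and 0.332 RPKM (log2 change -0.87, limma adjusted p = 4.49e-05). The mean of Mrc2 reached 0.5 RPKM only through its control libraries. Itgb1, the partner chain of the collagen-binding integrins, was at 47.6 to 50.5 RPKM in all libraries and was not called. Ddr2, a second receptor kinase for collagen, lay below the first floor, with 0.108 and 0.156 RPKM and then 0.599 and 0.641 RPKM (log2 change 1.64 at the 0.1 RPKM floor, limma adjusted p = 1.8e-05). Gp6 was listed at 0 in all 4 libraries.

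In the degradation list, 5 of 8 tested genes fell, 1 rose and 2 were not called, with a median log2 change of -0.56, where 67.2% of all tested genes were called and 35.0% were lower. Timp2, an inhibitor of matrix metalloproteinases, fell from 4.47 and 3.53 RPKM to 1.496 and 1.71 RPKM (log2 change -1.09). Of the proteases, Mmp15 fell from 7.59 and 6.37 RPKM to 3.65 and 3.50 RPKM (log2 change -0.87), Mmp11 from 15.6 and 16.3 RPKM to 8.21 and 9.05 RPKM (log2 change -0.85) and Mmp2 from 10.4 and 7.72 RPKM to 5.39 and 5.36 RPKM (log2 change -0.69). Mmp9, a gelatinase like Mmp2, rose from 1.22 and 1.20 RPKM to 2.46 and 2.71 RPKM (log2 change 0.85). Among these 5 genes the highest limma adjusted p was that of Mmp2, 0.000664. The 5 that fell were 3 proteases and 2 inhibitors, Timp2 and Timp3, while the protease Mmp14 and the inhibitor Timp1 were not called. The mean of Timp3 reached 0.5 RPKM only through its control libraries. Of 10 collagen-binding matrix proteins, 2 were tested. Sparc rose from 143 and 146 RPKM to 235 and 246 RPKM (log2 change 0.73, limma adjusted p = 8.88e-06), and Fn1, fibronectin, fell from 262 and 256 RPKM to 201 and 177 RPKM (log2 change -0.46, limma adjusted p = 0.000464). The proteoglycans Dcn, Lum, Fmod, Kera, Ogn and Prelp, which coat collagen fibres in connective tissue, had no library above 0.1 RPKM, and Kera was listed at 0 in all 4.

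**Figure D5:**
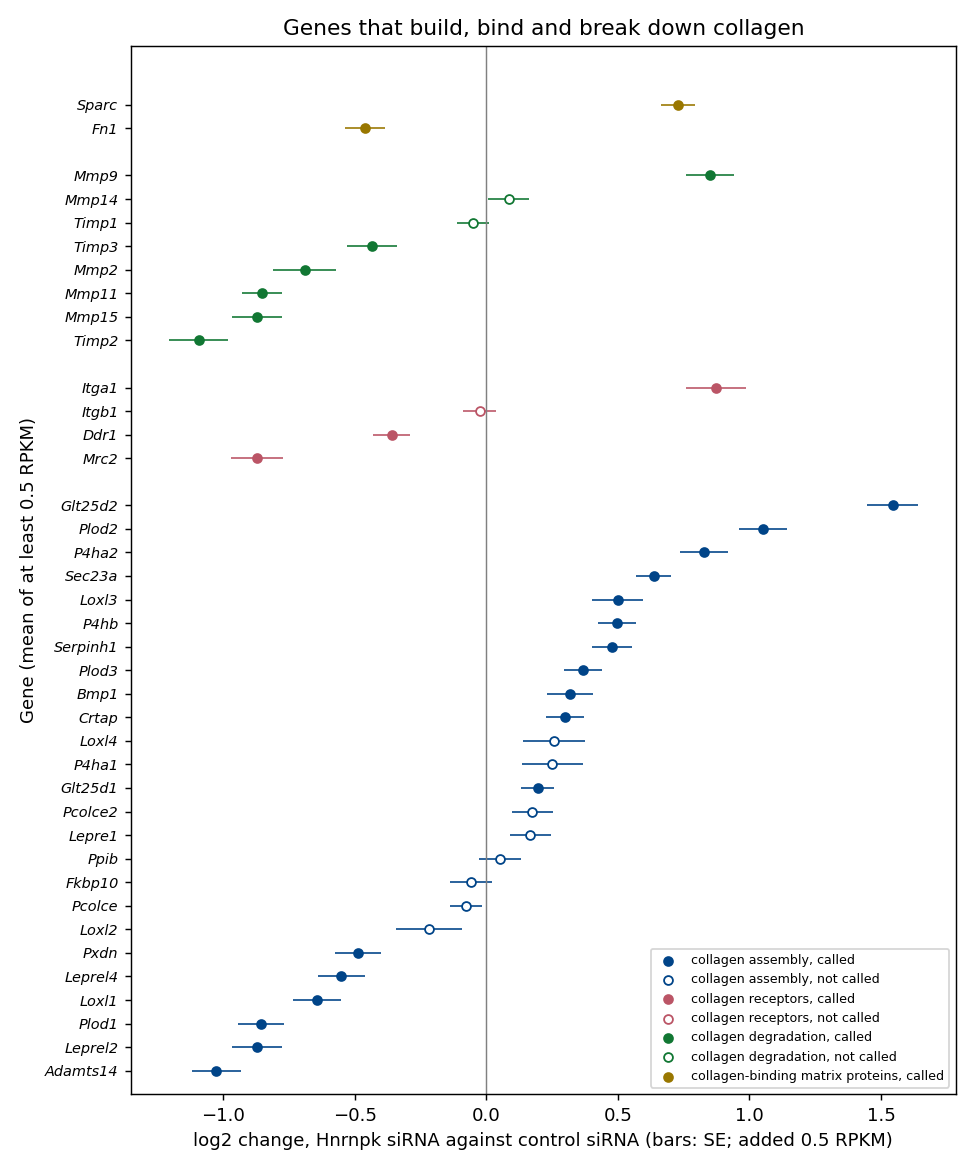
log2 change after Hnrnpk siRNA (x axis, bars are the SE, 0.5 RPKM added) of the 39 tested genes that assemble, bind or degrade collagen (y axis), coloured by list; filled points are called by limma at an adjusted p under 0.05. Assembly genes spread from Adamts14 at -1.03 to Glt25d2 at 1.54, and 5 of the 8 degradation genes lie to the left of 0 as called.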

How the data were processed

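Poly(A) or ribosomal-depleted RNA (the labels name both) was sequenced in 4 libraries. The authors deposited RPKM per gene in 1 table, per the file headers 1 column a library. Per the submitters' processing notes BWA and SAMtools were used with build mm9; the counting tool, annotation, strandedness and handling of multi-mapped reads were not stated there or in the labels. Values were analysed as log2(RPKM + 0.5) where the mean reached 0.5 RPKM, with limma 3.58.1 in R 4.3.3 (mean-variance trend, two-sided, 7.47 prior degrees of freedom) and Benjamini-Hochberg adjustment across the table; genes were called under 0.05. The fit was also run on simulated data in which far fewer genes changed than were called here. That run does not measure the error rate in these data. Exonic lengths came from GENCODE M21 (GRCm38), which held 92.8% of identifiers, and shared sequence from BLAST 2.17.0. Of low values in genes with 1 exonic block, 27.2% to 29.1% lay within 0.02 of a whole unit, so no count test was made, and values in units are estimates. The members, lists, classes and alternatives were chosen with earlier results of these data known. Named genes were all collagens tested, the low ones by class, and up to 5 called genes with the largest change of each list. P4hb, Serpinh1, Ppib, Fkbp10, Loxl3, Itgb1, Ddr2, Mmp14, Timp1 and the proteoglycans were named beside these after their values were seen, as were the printed promoter windows. Of the list names, 4 had no match and were left out.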

Additional observations from a re-analysis of the deposited data

How the results depend on the processing

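The depth of low genes set what could be called. With no filter on low values, 3778 of all 22138 genes were called higher and 3771 lower. Of the collagen genes 10 were called higher and 5 lower at that setting, against 0 and 3. Those called higher included Col8a1, Col6a6 and Col27a1, at log2 changes of 0.04, 0.06 and 0.1. Those called lower included Col1a2, at -0.07. With a floor and an added value of 0.1 RPKM the counts were 4 and 6, and with 0.02 RPKM they were 7 and 7; both of these were chosen after seeing the data, and more genes are tested in each. Leaving out 1 library gave 0 to 1 higher and 2 to 3 lower, where the 1 higher gene was Col20a1, which then passed the filter. The other alternatives run (0.1 or 1 RPKM added, a mean of at least 1 RPKM, median-ratio scaling, quantile normalization, no variance trend) gave 0 and 3. Collagen genes at 0 in every library numbered 0 to 1 with 1 library left out. Col18a1 kept its log2 change of -0.219 but not its call with no filter (adjusted p = 0.0682), and was at -0.163 and -0.205 without control or Hnrnpk siRNA replicate 2. Col5a1 turned to 0.084 under quantile normalization and to 0.028 without Hnrnpk siRNA replicate 2 (range -0.099 to 0.028 with 1 library left out), and Col5a2 to 0.01 without control replicate 2 (range -0.082 to 0.01), none of them called. The Col28a1 sum turned to -1.714 and -0.819 under quantile normalization and without control replicate 2 (range -0.819 to 1.181 with 1 library left out), from at most 2 units a library. Receptor genes called higher numbered 3 with no filter, 0 at a mean of at least 1 RPKM, 2 at 0.1 and 3 at 0.02 RPKM, against 1, and those called lower 1 at a mean of at least 1 RPKM, against 2. Collagen-binding proteins gave 2 lower at 0.1 RPKM and 2 higher and 2 lower at 0.02 RPKM, against 1 and 1. Over all genes, 3778 of 22138 were called higher with no filter. At a mean of at least 1 RPKM 3705 of 11408 were called higher and 3954 lower. At 0.1 RPKM 31.7% of all genes tested were called higher and 34.3% lower, and at 0.02 RPKM 30.8% and 31.8%. Replicate numbers in the labels name no shared batch, and the deviations of same-numbered libraries correlated at 0.0267. With the replicate number as a block, collagen genes called were 0 higher and 3 lower, and all genes 4162 higher and 4460 lower against 4025 and 4371 without pairing.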
